A study of Mus musculus with 15 samples.

Results

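Neurons fire because voltage-gated sodium channels open when the membrane is depolarized and let sodium in. The pore is formed by a single large alpha subunit, and small beta subunits with an immunoglobulin-like domain bind it, tune its gating and help to place it on the membrane. The intracellular fibroblast growth factor homologous factors are not secreted; they bind the tail of the alpha subunit and shape its inactivation. Purkinje cells (PCs), the output neurons of the cerebellar cortex, fire spontaneously at high rates and are known for a resurgent sodium current, which flows as the membrane repolarizes and is largely attributed to the alpha subunit encoded by Scn8a and to the beta subunit encoded by Scn4b.

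The 9 genes described here are the alpha subunits Scn1a, Scn2a, Scn3a and Scn8a, the beta subunits Scn2b, Scn3b and Scn4b, and the homologous factors Fgf12 and Fgf14. They were chosen by gene symbol, each matched 1 Ensembl gene of the 38561 in the count files, and all 9 were among the 14293 genes with enough counts to be tested. The samples were PCs that had been laser-microdissected from the cerebellum of untreated mice, labelled as strain C56/BL6 (C57/BL6 in the study's methods), at postnatal days 0, 4, 8, 14 and 21 (P0, P4, P8, P14 and P21), with 3 replicates each (15 samples). Per the study's methods the mice were male, and 1000 single PC bodies were captured per sample from P4 onwards. At P0 clusters of PCs were taken instead, so that the way of capture and the age cannot be told apart in any comparison with P0. Each group is the unmodified strain at 1 age, and the time points are therefore different animals rather than the same animals followed over time.

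Total counts on genes ranged from 3409371 to 7814951 per sample, and a gene without a count lay below 3 counts of that total, a limit that covers counting error only. The share of reads assigned to no gene was 24.1% to 29.8% at P0 and 16.7% to 19.1% at P14 and P21. Counting kept only reads lying fully within annotated features, so this share can include reads from inside genes. Its part in the results below was not tested. All 6 PC markers examined had counts at every time point and all 6 rose with age, their summed level going from 4549 to 6007 CPM (counts scaled by library size) at P0 to 36886 to 46640 CPM at P21, although Ppp1r17 was near 0 at P0, at 0.608 to 1.59 CPM. Markers of other cells were present at lower levels in sum at each time point. This did not hold gene by gene. The glial gene Slc1a3 averaged 1439 CPM at P0, above the mean of each PC marker except Pcp4 (1621 CPM). Its mean also exceeded that of Itpr1 at P4 (1901 against 1181 CPM) and at P8 (2388 against 2290 CPM), and that of Ppp1r17 at every time point. The 6 markers of Bergmann glia and astrocytes summed to 1699 to 2371 CPM at P0, 4987 to 5649 CPM at P14 and 3161 to 4600 CPM at P21. Of these markers, 2 rose and 1 fell. The 5 oligodendrocyte markers all rose, from a sum of 13.7 to 35.9 CPM at P0, where Mag and Mobp had no counts, to 396 to 845 CPM at P21. The 4 granule neuron markers summed to 315 to 1156 CPM with 1 rising, and those of basket, stellate and Golgi cells stayed between 20.1 and 109.6 CPM with none of the 4 tested passing. Microglial markers reached at most 25.5 CPM in sum, and vascular markers lay between 16.0 and 120.6 CPM with 1 of 3 falling. The part of these cells in the levels reported below was not tested. In captured tissue, moreover, a lower level can come from fewer cells of a type or from less RNA per cell, and counts do not tell these apart.

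The levels of the 9 genes are given as RPKM (reads per kilobase of exon, scaled by library size), so that genes of different length can be set side by side. Coverage along transcripts and RNA quality were not examined, so comparisons of levels between genes are approximate. The courses differed in direction, as the plot of levels by time point shows. Scn1a, Scn8a, Scn2b, Scn4b and Fgf12 were higher in each P14 and P21 sample than in any P0 or P4 sample, Scn3a and Scn3b were lower in each of them, and the samples overlapped for Scn2a and Fgf14. Over all genes tested, 8.24% lay above and 7.14% below in this way. In the edgeR quasi-likelihood test for a linear trend with postnatal day, 7 of the 9 genes passed at an adjusted p of 0.05, 5 rising and 2 falling, against 26.2% of all genes tested (12.1% rising and 14.1% falling). These include Scn4b, which passed the filter on low counts only through its samples from P8 onwards. Scn3a and Scn3b passed that filter only through samples before P21. Their calls add no support beyond their counts. The median slope of the 9 genes was 0.08 log2 units per day, and that of all genes tested was -0.01.

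**Figure D1:**
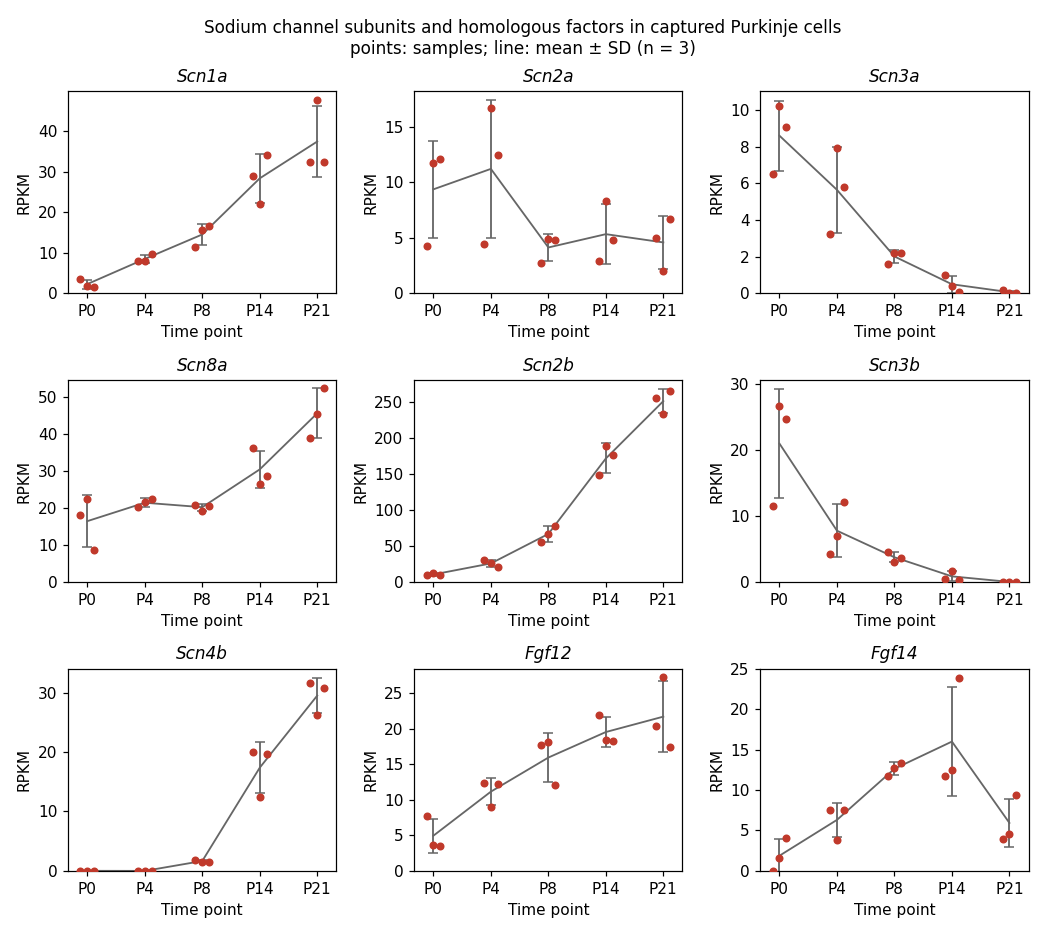
RPKM (vertical axes, scaled separately for each gene) of the 9 genes at the 5 time points. Points are the 15 samples, and lines join the means with SD (n = 3 per time point). 5 panels climb, with Scn2b going from 10.6 to 252 RPKM on average, Scn3a and Scn3b descend to nearly 0, Scn2a overlaps between all time points and P0, and Fgf14 is highest on average at P14.

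Among the alpha subunits, Scn1a (ENSMUSG00000064329), whose channel is widely used by fast-spiking neurons and whose loss of function causes a severe infantile epilepsy in people, had the largest rise. The gene lies on the minus strand of chr2:66270778-66440840 (GRCm38). Its level was 3.55, 1.82 and 1.45 RPKM in the 3 P0 samples, 7.94, 7.88 and 9.59 at P4, 11.5, 15.5 and 16.5 at P8, then 29.0, 22.0 and 33.98 at P14, and finally 32.3, 47.5 and 32.4 at P21. Each time point up to P14 lay wholly above the one before, and only P14 and P21 overlapped. P21 exceeded P0 by 4.04 log2 units (SE 0.328, edgeR adjusted p = 2.14e-07). The increase from P0 to P4, 1.89 log2 units (SE 0.304), was the single step that passed for this gene (edgeR adjusted p = 0.00394). The step from P8 to P14 was 0.97 log2 units and did not pass (edgeR adjusted p = 0.0979), but passed without replicate 1 of P0 (edgeR adjusted p = 0.0297), a sample that shares in the estimate of the spread, and with DESeq2 (adjusted p = 0.0211).

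Scn8a (ENSMUSG00000023033; plus strand of chr15:100869858-101045938) encodes the alpha subunit that dominates at mature axon initial segments and nodes of Ranvier. It was already the most abundant of the 4 at P0 on average, at 18.2, 22.4 and 8.64 RPKM. Its level was 20.1, 21.6 and 22.5 RPKM at P4 and 20.9, 19.1 and 20.5 at P8, and thus overlapped the P0 samples up to P8. It then stood at 36.1, 26.4 and 28.6 RPKM at P14 and 38.8, 45.3 and 52.3 at P21, without overlap between P8, P14 and P21. The slope was 0.07 log2 units per day (SE 0.0109, edgeR adjusted p = 0.000123), and P21 exceeded P0 by 1.47 log2 units (SE 0.261, edgeR adjusted p = 0.000591). None of the 4 steps between neighbouring time points passed for Scn8a, the largest being 0.59 log2 units from P8 to P14 (SE 0.257, edgeR adjusted p = 0.321).

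The RefSeq windows of Scn8a are shown because this gene has 2 annotated start sites there, and their upstream sequences differ in the motifs they hold. The bases before the start at position 100870645 and before the start at 100936271 (GRCm38.p6, plus strand, written 5′ to 3′) are given, with a match to AGGTCA, the core of the element bound by the ROR nuclear receptors, in capitals.
Scn8a first start, chr15:100870395-100870644: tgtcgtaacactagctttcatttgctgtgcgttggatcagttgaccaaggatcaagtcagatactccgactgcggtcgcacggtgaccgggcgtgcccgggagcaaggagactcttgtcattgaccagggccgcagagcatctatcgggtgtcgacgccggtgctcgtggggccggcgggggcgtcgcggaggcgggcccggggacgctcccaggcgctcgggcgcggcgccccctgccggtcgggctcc
Scn8a second start, chr15:100936021-100936270: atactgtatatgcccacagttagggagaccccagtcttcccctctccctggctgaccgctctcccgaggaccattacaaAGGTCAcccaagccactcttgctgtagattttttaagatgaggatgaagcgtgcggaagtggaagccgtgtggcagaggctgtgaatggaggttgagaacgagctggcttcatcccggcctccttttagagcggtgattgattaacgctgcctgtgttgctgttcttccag
Of the 9 genes, 7 had windows of 300 bases in the RefSeq table (250 before and 50 after the start), 12 windows in all. AGGTCA on either strand was found in 1 window each of Scn1a, Scn8a and Fgf12, and in 16.3% of 32851 windows of the genome. GGGCGG, the GC box, was found in 3 windows of Fgf12 and 1 of Fgf14 (35.7% of all windows), and TATAAA in 1 window of Scn2a (13.6%). Counts per gene do not tell which start was used, and a match says only that these letters are present. Both Scn8a starts lie inside the annotated gene, and the bases shown before each lie in no annotated exon. They can therefore be intron sequence, and whether either stretch acts as a promoter was not tested.

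Scn2a (ENSMUSG00000075318; plus strand of chr2:65620771-65767447) encodes the alpha subunit found early at axon initial segments and in unmyelinated axons. Its replicates were far apart at most time points. The level was 4.29, 11.7 and 12.1 RPKM at P0 and 4.43, 16.7 and 12.4 at P4. It was then 2.71, 4.85 and 4.82 RPKM at P8, then 2.89, 8.27 and 4.81 at P14, and finally 4.98, 2.03 and 6.73 at P21. The means after P4 were lower, but every time point overlapped P0. The slope of -0.06 log2 units per day (SE 0.0242) did not pass (edgeR adjusted p = 0.0858), nor did the difference of -1.03 log2 units between P21 and P0 (SE 0.543, edgeR adjusted p = 0.193). Without replicate 1 of P0, the low sample there, the slope was -0.07 and passed (edgeR adjusted p = 0.0433), and likewise when libraries were scaled by total counts (edgeR adjusted p = 0.0270) or tested with DESeq2 (adjusted p = 0.0472).

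Scn3a (ENSMUSG00000057182; minus strand of chr2:65457118-65567627) encodes the alpha subunit known as an embryonic and neonatal form in rodent brain. Its level was 6.50, 10.2 and 9.05 RPKM at P0, 3.21, 7.91 and 5.80 at P4, 1.59, 2.22 and 2.22 at P8, then 1.005, 0.415 and 0.0616 at P14, and finally 0.161, 0 and 0.0257 at P21. P0 and P4 overlapped, P8 lay below both, and P14 lay below P8. The slope was -0.34 log2 units per day (SE 0.0395, edgeR adjusted p = 3.48e-06). The 3 P21 samples held 8 Scn3a counts in all, against 1620 at P0, a ratio of 186 per effective library size in favour of P0 (exact 95% interval 94.3 to 432, counting error only). Replicate 1 of P21 held 6 of the 8 counts, and without it the ratio was 585 (exact 95% interval 162 to 4838), against 123 without replicate 2. None of the 4 single steps passed, the last one, -3.23 log2 units from P14 to P21, having an edgeR adjusted p of 0.309. At P14 replicate 3 held 4 counts whereas replicates 1 and 2 held 68 and 27. With DESeq2 the last step passed (adjusted p = 0.0179).

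Scn3a, Scn2a and Scn1a are neighbours in the sodium channel gene cluster of chromosome 2, followed by Scn9a. Between Scn3a and Scn2a, which are transcribed away from each other, lie 53143 bases, and between Scn2a and Scn1a lie 503330 bases. Scn9a, an alpha subunit best known from sensory neurons, lies 39239 bases beyond Scn1a. The genes of this cluster did not share a direction. Scn1a rose with age, Scn3a and Scn9a fell, and the slope of Scn2a, which lies between Scn3a and Scn1a, did not pass. Scn9a went from 1.23 to 1.57 RPKM at P0 to at most 0.0627 RPKM at P21 (slope -0.30, SE 0.0765, edgeR adjusted p = 0.00636). It held 79 to 104 counts per sample at P0 but at most 7 in any sample from P8 onwards. Scn9a thus passed the filter on low counts only through its early samples, and its slope adds no support beyond these values.

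As a share of the summed RPKM of the alpha subunits examined, Scn8a made up 42.3% ± 14.1 (SD, n = 3) at P0 and 51.9% ± 4.80 at P21, and its samples overlapped between these ages. Scn1a went from 6.23% ± 3.64 at P0 through 18.4% ± 3.89 at P4 and 35.3% ± 3.54 at P8 to 42.6% ± 7.36 at P21. Over the same course Scn3a went from 22.8% ± 4.41 to 0.0796% ± 0.114, and Scn2a from 24.7% ± 12.1 to 5.34% ± 2.80. In the P21 samples the order of levels was therefore Scn8a and Scn1a, which overlapped by exon length (38.8 to 52.3 against 32.3 to 47.5 RPKM), then Scn2a (2.03 to 6.73 RPKM), then Scn3a. At P0 Scn8a, Scn2a and Scn3a overlapped one another and Scn1a, at no more than 3.55 RPKM, lay below all 3. The summed level of alpha subunits was 38.1 ± 8.14 RPKM at P0 and 87.6 ± 9.93 at P21 (SD, n = 3). Summed exon lengths contain untranslated regions, and with coding lengths instead the P21 shares were 59.8% for Scn8a (56.0% to 64.6%) and 35.1% for Scn1a (28.5% to 41.9%), without overlap. Shares and ratios are descriptions without a test.

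**Figure D2:**
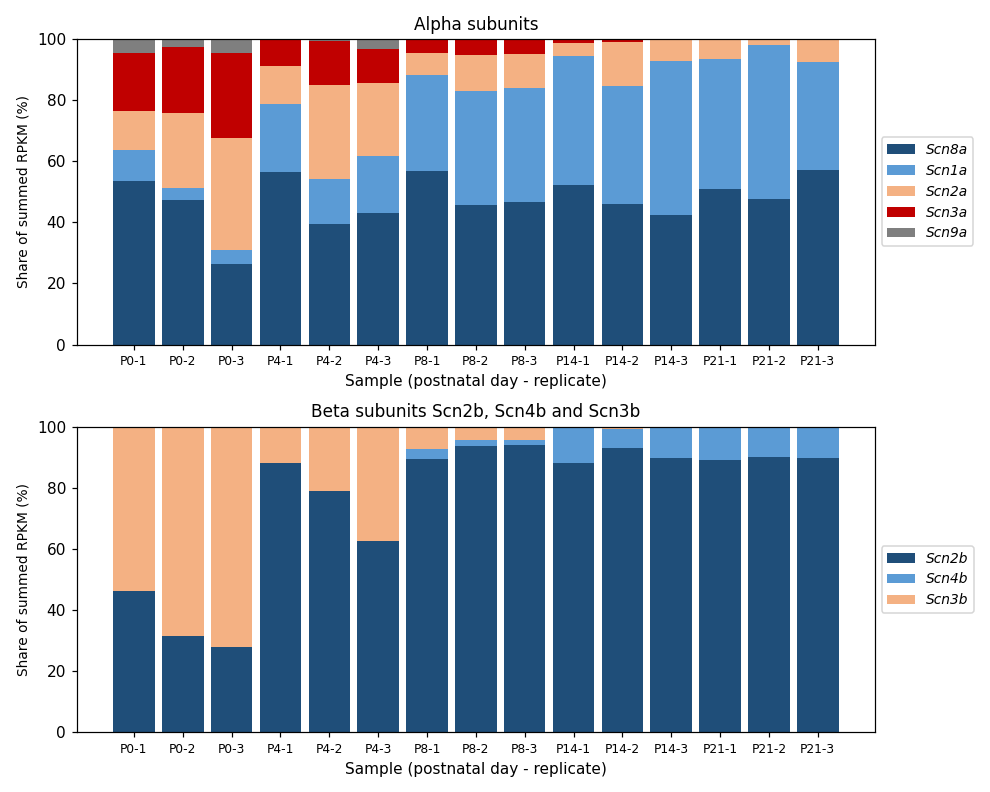
Share (%) of each subunit in a summed RPKM, that of the alpha subunits above and that of Scn2b, Scn4b and Scn3b below, with 1 bar per sample labelled by time point and replicate. The 9 samples from P8 onwards consist mostly of Scn8a and Scn1a above, and the lower bars pass from mostly Scn3b at P0 (64.8% on average) to mostly Scn2b at P21 (89.5%).

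Ratios within a sample do not depend on its library size. By exon length, for every Scn8a RPKM there were 0.148 ± 0.0599 Scn1a RPKM at P0, 0.396 ± 0.0307 at P4, 0.722 ± 0.150 at P8, then 0.942 ± 0.215 at P14 and 0.834 ± 0.215 at P21 (SD, n = 3). This ratio did not overlap between P0, P4 and P8, and overlapped among P8, P14 and P21. Scn8a over Scn2a ranged from 0.717 to 4.24 at P0, 1.29 to 4.54 at P4, 3.93 to 7.72 at P8, then 3.20 to 12.5 at P14 and 7.78 to 22.3 at P21, so that P21 lay above P0, P4 and P8 but overlapped P14. Scn1a over Scn3a was below 1 in each P0 sample (0.161 to 0.547), 0.996 to 2.48 at P4, 6.9997 to 7.43 at P8 and 28.9 to 551 at P14.

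**Figure D3:**
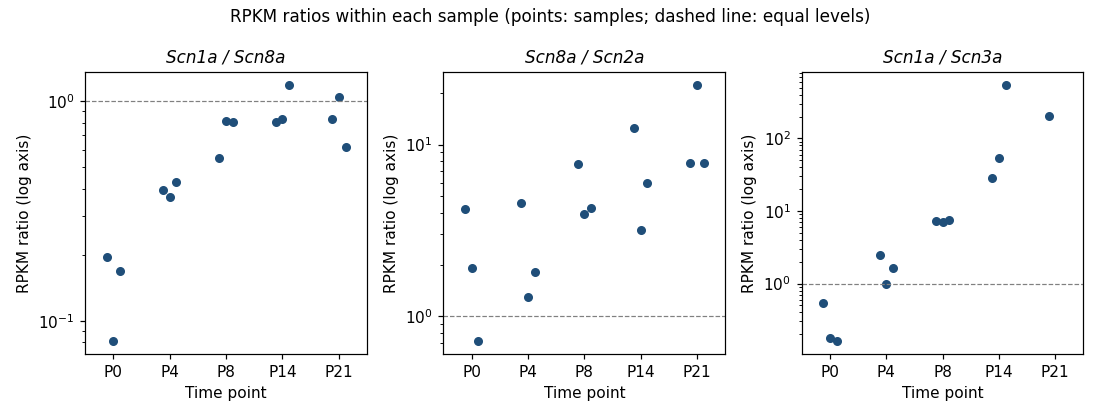
Ratios of RPKM within each sample on a log axis, for Scn1a over Scn8a, Scn8a over Scn2a and Scn1a over Scn3a at the 5 time points, with points for samples and a dashed line at equal levels. Ratios were drawn where both genes had more than 3 counts, which leaves 1 sample at P21 for Scn1a over Scn3a (201). Scn1a stays below Scn8a in each P0, P4 and P8 sample, and Scn1a passes Scn3a between P0 and P8.

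Among the beta subunits, Scn2b (ENSMUSG00000070304; plus strand of chr9:45117782-45130070), whose product is joined to the alpha subunit by a disulphide bond, had the highest mean of the 9 genes from P4 onwards. Its level was 9.95, 12.3 and 9.53 RPKM at P0, 31.4, 26.1 and 20.5 at P4, 55.5, 66.9 and 78.7 at P8, then 149, 190 and 177 at P14, and finally 256, 233 and 266 at P21. No 2 time points overlapped. Scn2b passed in 3 consecutive steps, with 1.29 log2 units from P0 to P4 (SE 0.194, edgeR adjusted p = 0.00221), 1.37 from P4 to P8 (SE 0.192, edgeR adjusted p = 0.00115) and 1.36 from P8 to P14 (SE 0.191, edgeR adjusted p = 0.00114), whereas the 0.55 log2 units from P14 to P21 did not pass (edgeR adjusted p = 0.477). The slope was 0.22 log2 units per day (SE 0.0175, edgeR adjusted p = 5.26e-08), and P21 exceeded P0 by 4.57 log2 units (SE 0.219, edgeR adjusted p = 1.26e-09).

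Scn4b (ENSMUSG00000046480; plus strand of chr9:45138395-45154152) encodes the other disulphide-linked subunit, whose cytoplasmic tail can block the open pore and so produce resurgent current. It held 1, 0 and 0 counts in the P0 samples and none at P4. At P8 it held 47, 40 and 43 counts, or 1.90, 1.53 and 1.56 RPKM. The level was 19.99, 12.4 and 19.7 RPKM at P14 and 31.6, 26.1 and 30.8 at P21. Counts thus appeared in all 3 samples of P8 after none at P4, and each later time point lay above the one before. Against the limit of 3 counts in each library the P8 level was at least 15.2-fold higher than at P4, a bound without a test. The fitted step from P4 to P8 was 8.44 log2 units (edgeR adjusted p = 7.71e-05), a size that depends on how samples without counts are fitted. Scn4b passed the filter on low counts only through its samples from P8 onwards, so this call adds no support beyond the counts. From P8 to P14 the level rose by 3.38 log2 units (SE 0.395, edgeR adjusted p = 0.000656), a ratio of 10.5 by summed counts (exact 95% interval 8.76 to 12.7, counting error only). The last step, 0.76 log2 units, did not pass (edgeR adjusted p = 0.713). The slope of 0.51 log2 units per day (SE 0.063, edgeR adjusted p = 7.29e-06) depends on how samples without counts are fitted and is no bound.

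Scn2b and Scn4b lie next to each other on chromosome 9, 8324 bases apart and on the same strand, and both rose. The bases before their RefSeq start sites that lie outside annotated exons are shown for this neighbouring pair (GRCm38.p6, plus strand, 5′ to 3′).
Scn2b, chr9:45117626-45117781: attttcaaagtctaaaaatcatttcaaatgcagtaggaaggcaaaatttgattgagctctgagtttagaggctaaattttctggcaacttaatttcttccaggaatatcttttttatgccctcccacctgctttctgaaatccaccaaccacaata
Scn4b, chr9:45138374-45138394: gtcgtccgcagcgggcaagcc
No letters are in capitals because none of the 6 motifs searched was present in either gene's window of 300 bases. The other 3 motifs were CACGTG, an E-box (7.15% of all windows), TGACGTCA, the cAMP response element (1.79%), and TTCAGCACC, the left part of the RE1 element (0.371%), and these were in no window of the 9 genes. The courses of the pair were not alike in timing. Scn2b had counts in every sample from P0 onwards, and Scn4b in every sample only from P8 onwards. The ratio of Scn4b to Scn2b was 0.0257 ± 0.00762 at P8, 0.104 ± 0.035 at P14 and 0.117 ± 0.00572 at P21 (SD, n = 3).

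Scn3b (ENSMUSG00000049281; plus strand of chr9:40269217-40291618), a beta subunit bound without a covalent link, went the other way. Its level was 11.6, 26.7 and 24.7 RPKM at P0, 4.27, 6.92 and 12.2 at P4, 4.61, 3.07 and 3.61 at P8, then 0.472, 1.75 and 0.387 at P14, and finally 0.0611, 0 and 0.0293 at P21. It was the most abundant of the 3 beta subunits at P0 and, apart from P0 with P4 and P4 with P8, no neighbouring time points overlapped. The slope was -0.38 log2 units per day (SE 0.0354, edgeR adjusted p = 3.84e-07). The P21 samples together held 2 counts against 1730 at P0, a ratio of 796 per effective library size (exact 95% interval 220 to 6577, counting error only), which was 527 without replicate 2 of P21 and 1250.3 without replicate 1, with 2 and 1 counts left. From P14 to P21 Scn3b fell by 4.82 log2 units (SE 0.908, edgeR adjusted p = 0.0311), the one call among the 9 genes at this step, for which 0.329% of all genes tested were called (0.063% higher and 0.266% lower at P21). That call rested on few counts (75 at P14 and 2 at P21) and was lost without replicate 2 of P14 (-3.81 log2 units, edgeR adjusted p = 0.142), without replicate 3 of P8 (-4.82, edgeR adjusted p = 0.0509) and without replicate 1, 2 or 3 of P21 (-5.40, -4.28 and -4.92, edgeR adjusted p = 0.0885, 0.192 and 0.0988). The step from P8 to P14, -2.11 log2 units, did not pass (edgeR adjusted p = 0.081), but did without replicate 2 of P14 (-3.12, edgeR adjusted p = 0.0218) and with DESeq2 (adjusted p = 0.0131).

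Of the summed RPKM of these 3 beta subunits, Scn3b made up 64.8% ± 9.77 at P0, 23.4% ± 12.9 at P4, 5.35% ± 1.81 at P8 and 0.0104% ± 0.0106 at P21 (SD, n = 3). Scn2b went from 35.2% ± 9.67 at P0 through 76.6% ± 12.9 at P4 to 92.3% ± 2.43 at P8 and 89.5% ± 0.467 at P21. Scn4b made up 2.36% ± 0.632 at P8, 9.29% ± 2.92 at P14 and 10.5% ± 0.456 at P21. Scn3b was thus above Scn2b in each P0 sample and below it in each later sample. The summed level of the 3 genes was 31.6 ± 9.01 RPKM at P0, 33.8 ± 1.65 at P4 and 281 ± 19.4 at P21 (SD, n = 3), so that P0 and P4 overlapped in the sum while its makeup differed. Other beta subunits were not used here.

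The homologous factor Fgf12 (ENSMUSG00000022523; minus strand of chr16:28160098-28753068) rose early. Its level was 7.69, 3.65 and 3.53 RPKM at P0, 12.3, 8.93 and 12.2 at P4, 17.7, 18.1 and 12.04 at P8, then 22.0, 18.4 and 18.2 at P14, and finally 20.5, 27.2 and 17.5 at P21. All P4 samples lay above all P0 samples, P4 overlapped P8, and P14 overlapped P21. P21 exceeded P0 by 2.13 log2 units (SE 0.325, edgeR adjusted p = 0.000148), with a slope of 0.09 per day (SE 0.0181, edgeR adjusted p = 0.00121). The step from P0 to P4 was 1.17 log2 units (SE 0.317) and did not pass (edgeR adjusted p = 0.0774). Without replicate 1 of P0 it was 1.60 and passed (edgeR adjusted p = 0.0124), as it did with DESeq2 (adjusted p = 0.0253).

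Fgf14 (ENSMUSG00000025551; minus strand of chr14:123977907-124677127), in which mutations cause a dominant ataxia in people and whose loss in mice impairs PC firing, had no straight course. Its level was 0, 1.57 and 4.07 RPKM at P0, 7.57, 3.87 and 7.497 at P4, 11.8, 12.7 and 13.4 at P8, then 11.7, 12.5 and 23.8 at P14, and finally 3.91, 4.51 and 9.38 at P21. All P8 and P14 samples lay above all samples of the other 3 time points. The share of all genes tested that separate in this way was not determined, so this split describes the values only. The slope of 0.08 log2 units per day (SE 0.0561) did not pass (edgeR adjusted p = 0.35), nor did the test for change in any pattern (edgeR adjusted p = 0.11), in which 19.3% of all genes and 7 of the 9 passed. Replicate 1 of P0 held no Fgf14 count while replicates 2 and 3 held 33 and 84. The any-pattern test passed without replicate 1 of P0 (edgeR adjusted p = 0.0205) and also without replicate 3 of P0 (0.0392), and with all samples in limma-voom (0.0371) and DESeq2 (0.0186). The difference between P21 and P0 was 1.66 log2 units (SE 0.853, edgeR adjusted p = 0.179) and 2.88 without replicate 3 of P0 (edgeR adjusted p = 0.0418). Fgf14 shares 220 exonic bases with the antisense gene Gm28932, and whether counting used strand is not given in the sources used here.

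Relative to Fgf12 in the same sample, Fgf14 was 0.663 to 1.11 at P8, 0.532 to 1.31 at P14 and 0.165 to 0.538 at P21. Within the class, which also holds Fgf11 and Fgf13, Fgf14 made up 25.7% ± 3.97 of the summed RPKM at P8 and 7.36% ± 3.82 at P21 (SD, n = 3). Fgf12 made up 50.2%, 17.2% and 14.1% in the P0 samples and 26.9% ± 6.65 at P21 (SD, n = 3), the P0 mean being 27.2% and, without replicate 1, 15.6%. Fgf11 went from 29.5% ± 14.998 to 64.1% ± 6.76 and Fgf13 from 35.4% ± 1.97 to 1.67% ± 1.37.

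Calls on single steps were few in the whole data set. From P0 to P4, 2 of the 9 genes passed (Scn1a and Scn2b, both higher at P4) against 1.97% of all genes tested (1.74% higher and 0.231% lower). Between P4 and P8 the 2 were Scn2b and Scn4b, against 1.13% (0.882% higher and 0.252% lower), and between P8 and P14 they were the same pair, against 2.67% (1.29% higher and 1.38% lower). Between P21 and P0, 7 of the 9 passed, 5 higher and 2 lower at P21, against 22.8% of all genes tested (12.2% higher and 10.6% lower), and the median difference of the 9 genes was 1.66 log2 units against -0.11 for all genes tested. The limit from the filter on low counts given above for Scn3a, Scn3b and Scn4b applies to their calls here too.

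A list of 27 genes that work with these channels was followed in the same tests. It holds further alpha subunits, Fgf11 and Fgf13, the sodium leak channel, anchoring and adhesion proteins of the axon initial segment and node, and enzymes that act on the channels. Of these, 23 were tested and 10 passed the trend test, 5 rising and 5 falling, against 26.2% of all genes tested (12.1% rising and 14.1% falling). The falling ones include Scn9a, which passed the filter on low counts only through its early samples and adds no support to these counts. The median slope of the 23 was 0.00 log2 units per day against -0.01 for all genes tested. Of the further alpha subunits, all but Scn9a were at or near 0. Scn7a and Scn10a had no counts in the 15 samples, and Scn4a and Scn11a held 4 and 2 counts, all in replicate 2 of P14.

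The rising genes of the list came from several classes. Unc80, a large scaffold of the sodium leak channel, went from 1.80 ± 0.471 RPKM at P0 to 20.97 ± 2.49 at P21 (SD, n = 3), with a slope of 0.17 (SE 0.0194, edgeR adjusted p = 2.9e-06). The pore-forming gene of that channel, Nalcn, did not pass and stood at 1.74 ± 1.24 and 3.42 ± 0.349 RPKM at the same ages (SD, n = 3), while Fam155a, which assists its folding, had a slope of 0.09 (edgeR adjusted p = 0.0028). Fgf11 went from 6.47 ± 3.97 to 52.1 ± 7.10 RPKM (SD, n = 3), with a slope of 0.15 (SE 0.0221, edgeR adjusted p = 5.09e-05) and a step of 1.84 log2 units from P8 to P14 (edgeR adjusted p = 0.0475). Nfasc, the neurofascin gene, whose long form anchors at the initial segment, had a slope of 0.11 (SE 0.0175, edgeR adjusted p = 0.000108). Counts per gene do not separate its forms. All 5 oligodendrocyte markers also rose, and the part of other cells in the Nfasc slope was not tested. Prkaca, the catalytic subunit of protein kinase A, had a slope of 0.04 (edgeR adjusted p = 0.00684). Its call was lost with libraries scaled by total counts (edgeR adjusted p = 0.0896).

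The falling genes of the list were Scn9a, with the limit from the filter given above, Fgf13, Trim46, Nedd4l and Nedd4. Fgf13 was 5.74 to 8.37 RPKM at P0 and 0.0831 to 2.003 at P21, and its slope of -0.12 (SE 0.0357, edgeR adjusted p = 0.0151) was lost with limma-voom (adjusted p = 0.0755) and with log2(day + 1) as the time scale (edgeR adjusted p = 0.238). Trim46, which bundles microtubules in the early axon, went from 22.8 ± 7.74 to 4.98 ± 1.85 RPKM (SD, n = 3), with a slope of -0.10 (SE 0.0168, edgeR adjusted p = 0.000213). Nedd4 and Nedd4l, ubiquitin ligases of which Nedd4l removes sodium channels from the membrane, had slopes of -0.05 (SE 0.00803, edgeR adjusted p = 0.000236) and -0.10 (SE 0.0199, edgeR adjusted p = 0.000946), and that of Nedd4l was lost without the P0 samples (edgeR adjusted p = 0.0571). Ank3, which encodes the ankyrin that gathers sodium channels at the initial segment, had a slope of 0.00 (edgeR adjusted p = 0.906), with 6.39 ± 2.85 RPKM at P0 and 6.76 ± 0.419 at P21 (SD, n = 3).

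**Figure D4:**
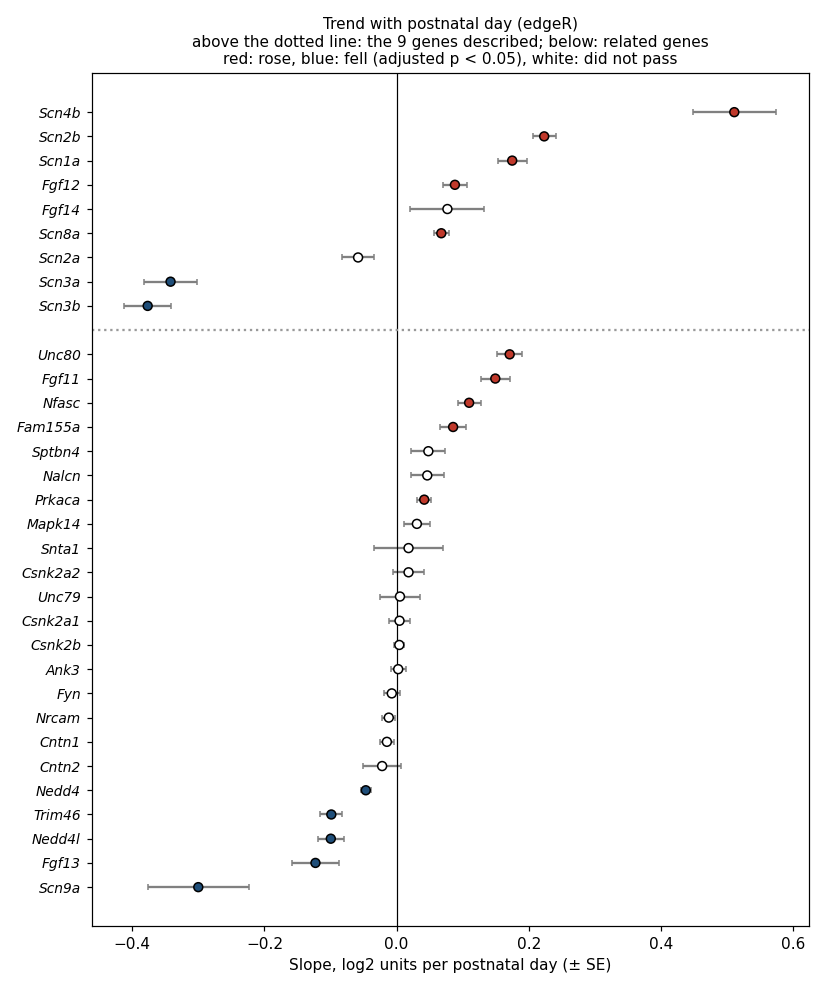
Slope with postnatal day (log2 units per day, horizontal axis, with SE) from edgeR for the 9 genes above the dotted line and the 23 tested genes of the related list below it. Filled points passed at an adjusted p of 0.05, red rising and blue falling, and white points did not pass. Scn4b (0.51) and Scn3b (-0.38) are at the ends, and 13 of the 23 related genes are white.

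Genes whose log2 CPM followed a given member most closely over the 15 samples were looked up among 9732 genes with a mean of at least 10 CPM. Samples of 1 time point share their age, so the coefficients describe shared courses only. Scn8a ran closest to Slc25a22 (Pearson r = 0.93), Sort1 (0.923) and Ptprm (0.92). Closest to Scn3a were Rack1 (0.973), Tuba1c (0.97) and Bax (0.962). Scn4b had the closest companions, with Rspo3 at 0.996 and Rhobtb2 and Cyp27a1 at 0.99. Fgf14, highest at P8 and P14, ran with S100a16 and Nr2f1 (0.944 each) and Lgalsl (0.906).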

How the data were processed

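Paired-end libraries were made with the SMARTer Ultra Low kit from RNA of captured PCs. Per the submitters' processing notes, cutadapt 1.2.1, GSNAP and HTSeq 0.5.3p9 were used with GRCm38 (mm10), and the deposited files hold raw integer counts by Ensembl gene ID, made from uniquely mapped reads in intersection-strict mode. Whether counting used strand is not given in the sources used here. Tallies of reads not assigned to a gene were kept out of library sizes.

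The counts were tested in edgeR 4.0.16 (R 4.3.3) by its quasi-likelihood method (glmQLFTest, filterByExpr by time point, TMM, Benjamini-Hochberg over all 14293 genes tested), with postnatal day as a number or the time point as a factor. No covariate was used, all 15 samples entered each fit, and 1 estimate of the spread was shared. The biological coefficient of variation was 0.757 in the fit with day as a number and 0.705 in the fit by time point. Replicates differed by 18.4 to 56.5 chi-square units per gene, so none was a repeat deposit. The study's methods call the replicates biological, the labels do not name the animals, and p-values measure the spread between these samples. RPKM used TMM effective library sizes and summed exon lengths of GENCODE M21, where 36639 of the gene IDs were found. Promoter windows came from RefSeq, with none for Scn3a and Scn3b. DESeq2 1.42.0 and limma 3.58.1 gave alternative fits, and further alternatives were other size factors, log2(day + 1), no P0 samples and leaving out each sample, with the filter repeated (values in the text) or, chosen after the data were seen, with the same genes tested. The test code was tested on simulated data with a smaller spread than these data, which checks the code and not the error rates here. Tables used Python 3.11.15, numpy 2.4.6, pandas 2.3.3, scipy 1.17.1 and matplotlib 3.10.9.

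The 9 genes are named by their symbols. From the related list, up to 12 genes past the threshold with the largest slopes were named, and for Scn8a, Scn3a, Scn4b and Fgf14 the 3 most alike genes. Nalcn, Ank3 and the untested alpha subunits were named after their values were seen. Some genes of the list are not reported here. The members and lists were chosen with earlier results of these data known.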

Additional observations from a re-analysis of the deposited data

How the results depend on the processing

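Most results kept their direction and their side of the threshold. Of the values for single genes outside the leave-one-out repeats, 416 were unchanged, 8 newly passed, 5 no longer passed and 1 turned, namely the slope of Fgf14 without the P0 time point (-0.00454848). Without P0, 3 of the related genes fell in place of 5. With the DESeq2 Wald test the genes called were 773 from P0 to P4, 496 from P4 to P8, 844 from P8 to P14 and 175 from P14 to P21, and 4 and 2 of the 9 genes passed in the last pair of steps. With edgeR these steps had 281, 162, 382 and 47 calls. Leaving out 1 sample, with the filter repeated or with the same genes tested, gave 186 to 311, 74 to 206, 163 to 461 and 23 to 70 calls, and 0 to 1 of the 9 genes at the last step. Steps that did not pass and changed sign in these repeats were those of Scn2a from P0 to P4 (-0.15 to 0.61), P8 to P14 (-0.10 to 0.67) and P14 to P21 (-0.61 to 0.25), of Fgf14 from P8 to P14 (-0.0641 to 0.52) and of Fgf12 from P14 to P21 (-0.0466 to 0.29). In these repeats 19 single-gene values changed sign or call, the same 19 with the filter repeated and with the same genes tested, the latter chosen after the data were seen. The causes were not tested. Scaling by total counts, chosen after the data were seen, moved the median of all genes by -0.35 log2 units between P21 and P0 and by -0.15 from P8 to P14, and left 1232 genes rising and 2866 falling against 1729 and 2021 in the trend test, 1312 higher and 2285 lower at P21 than at P0 against 1739 and 1522, and 140 higher and 330 lower at P14 than at P8 against 185 and 197. The replicate numbers did not pair the samples: same-numbered samples had correlations of their deviations of -0.0316 to 0.0472, and 3 of 15 correlated best with their own number. When the replicate number was added as a block, 3634 genes passed the trend test, 2552 the any-pattern test and 3087 P21 against P0, with 7 of the 9 genes in each, and 226, 125, 338 and 35 the 4 steps, with 0 of the 9 genes at the last one (Scn3b, adjusted p = 0.0581). Depth limits Scn3a, Scn3b and Scn4b, whose totals at 1 end of the course were 8, 2 and 1 counts.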
